A study of Mus musculus with 20 samples.

Results

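The genes described here are 10 genes of cholesterol hydroxylation and bile acid handling, out of 57010 genes counted: the sterol hydroxylases Cyp46a1, Cyp7a1, Cyp8b1, Cyp27a1, Cyp7b1, Cyp39a1 and Ch25h, the bile acid synthesis enzyme Hsd3b7, the repressor Nr0b2 and the bile salt pump Abcb11. They were chosen by name, around the difference of Cyp46a1 between 7c-treated and vehicle livers. That contrast is therefore described for them by values, standard errors and the count of genes called, which supports nothing by itself, and p-values are given for kidney, for liver against kidney, and, except for Cyp46a1, for how the treatment difference varied between tissues. Liver and kidney RNA was measured in 10 UM-HET3 mice, all male, of a genetically heterogeneous cross in which each animal has its own mixture of alleles. For 28 days, starting at 12 months of age, osmotic minipumps under the skin gave 6 mice the 7c mixture and 4 mice only its solvent (vehicle, 50% DMSO and 50% PEG300). The 7c mixture consists of repsox, tranylcypromine, DZNep, CHIR99021, forskolin and TTNPB, each at 0.1 mg/kg/day, and valproate at 1 mg/kg/day. All mice ate a standard diet and lived alone after surgery, and no untreated or unoperated group was analysed here.

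Bile acids are made from cholesterol in hepatocytes. CYP7A1 begins the classic route and sets its rate, HSD3B7 acts on the product, and CYP8B1 directs it to cholic acid. CYP27A1 begins the alternative route, in which CYP7B1 hydroxylates the oxysterols formed. CH25H and CYP46A1 also turn cholesterol into oxysterols, the latter mainly in neurons, where its product carries cholesterol out of the brain, and CYP39A1 acts on that product. NR0B2 (SHP) is induced by the bile acid receptor FXR and represses Cyp7a1 and Cyp8b1, and ABCB11 exports bile salts into bile.

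Total counts ranged from 27855849 to 64872451 over the 20 libraries. The tissue labels fitted their markers: 6 hepatocyte markers summed to at least 68650 CPM (counts scaled to a common library total) in each liver and at most 327 CPM in each kidney. In turn, 6 kidney tubule markers summed to at most 1.76 CPM in each liver and at least 35720 CPM in each kidney. Skeletal muscle markers stood out in 1 library, the liver of 7c replicate 6, with a sum of 661 CPM against at most 1.79 CPM in the other livers. In bulk tissue, fewer cells of a type and less RNA per cell cannot be told apart.

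Under vehicle, Cyp8b1, Cyp27a1 and Abcb11 had the highest liver levels of these genes. Per transcript length (TPM), the mean levels of the 4 vehicle livers were 1037 ± 81.3 (SD) for Cyp8b1, 681 ± 85.6 for Cyp27a1, 490 ± 94.3 for Abcb11, 170 ± 43.9 for Cyp7b1, 79.5 ± 12.2 for Cyp7a1 and 71.3 ± 31.1 for Nr0b2. Below them came Cyp39a1 with 15.4 ± 6.70 TPM, Cyp46a1 with 3.99 ± 2.59 TPM and Ch25h with 0.243 ± 0.435 TPM. In this order the ranges of 4 neighbouring pairs overlapped: Cyp27a1 with Abcb11, Cyp7a1 with Nr0b2, Cyp39a1 with Cyp46a1, and Ch25h with the undetected Hsd3b7. Cyp46a1 thus held rank 8 of 10 genes in vehicle livers. In 7c-treated livers its mean was 73.1 ± 38.9 TPM (n = 6), and it held rank 5, between Cyp7b1 with 140 ± 52.7 TPM and Cyp7a1 with 67.9 ± 24.9 TPM, with ranges that overlapped both.

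**Figure D1:**
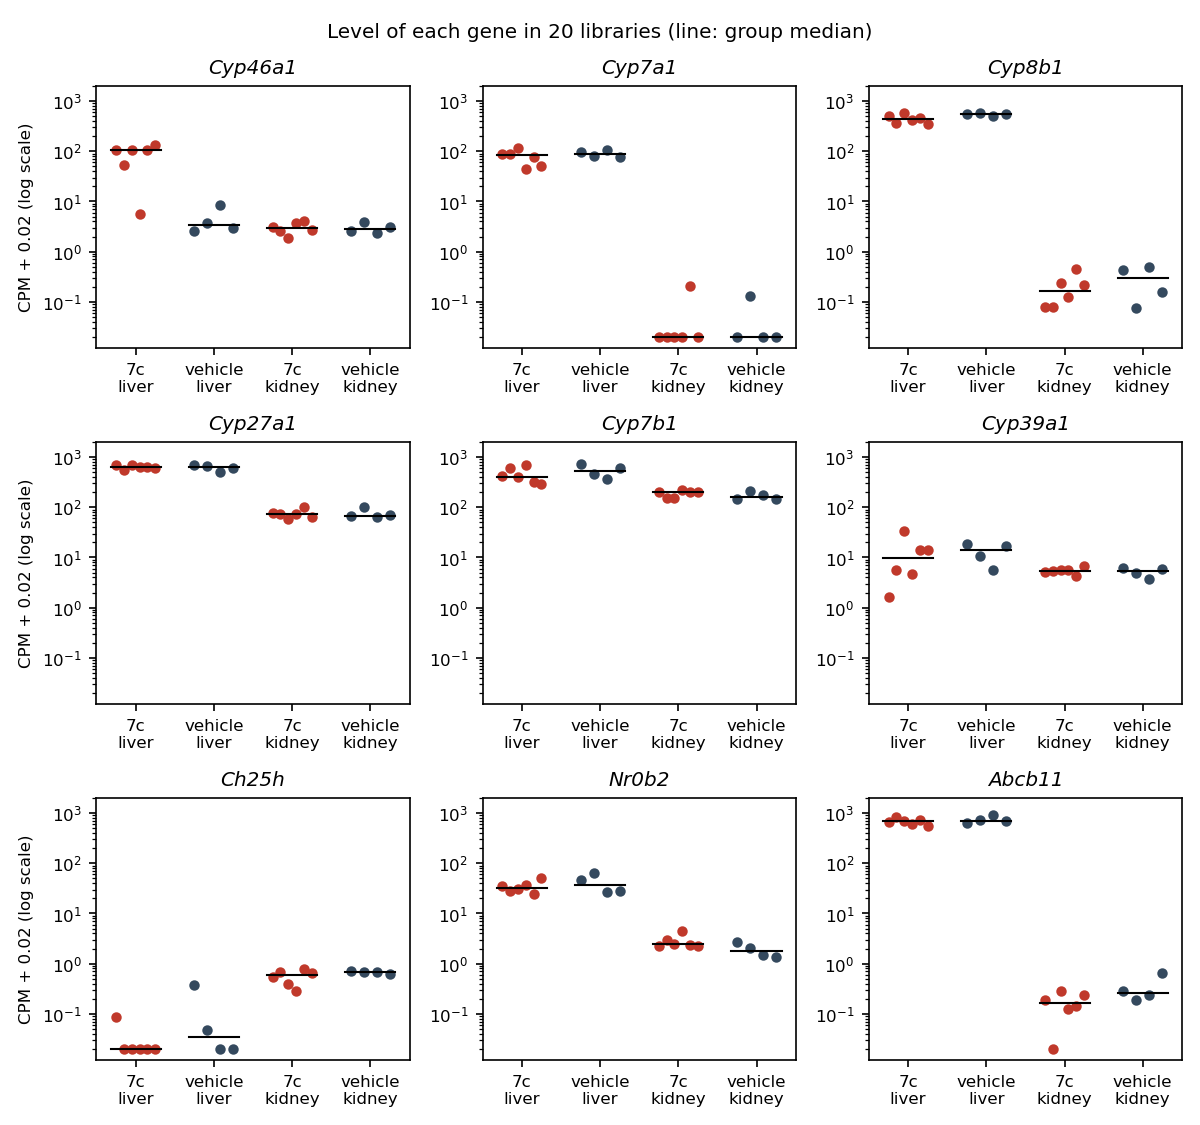
CPM plus 0.02 on a log scale for 9 genes in each of 20 libraries, red for 7c and dark blue for vehicle, with a line at each group median. Cyp46a1 in 5 of 6 7c-treated livers lay above every vehicle liver, and Cyp7a1, Cyp8b1 and Abcb11 were near 0 in kidney. Hsd3b7 had 0 counts throughout and is not drawn.

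The sequence upstream of Cyp46a1 is shown beside those of its neighbour Hhipl1, described later, and of the hepatocyte genes Cyp8b1 and Nr0b2, because their promoter types differ. Sequences are from RefSeq on GRCm38.p6, whereas the counts refer to GRCm39. Promoters of 300 bases (250 before to 50 after the annotated start) were listed for 7 of the 10 genes, not for Cyp7a1, Cyp7b1 and Cyp39a1. The 250 bases before the start are printed 5′ to 3′ on the gene's strand, at chr12:108334066-108334315 (+) for Cyp46a1, chr12:108306020-108306269 (+) for Hhipl1, chr9:121916306-121916555 (-) for Cyp8b1 and chr4:133553126-133553375 (+) for Nr0b2. Capitals mark GC boxes (GGGCGG on this strand) in Cyp46a1, the CCAAT box in Hhipl1, and the TATA box (TATAAA) in Cyp8b1 and Nr0b2.
Cyp46a1: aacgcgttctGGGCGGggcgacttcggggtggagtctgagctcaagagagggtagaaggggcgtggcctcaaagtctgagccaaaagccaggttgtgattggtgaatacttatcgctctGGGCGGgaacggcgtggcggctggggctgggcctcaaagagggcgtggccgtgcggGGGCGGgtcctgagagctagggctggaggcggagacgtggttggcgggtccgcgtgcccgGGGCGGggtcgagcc
Hhipl1: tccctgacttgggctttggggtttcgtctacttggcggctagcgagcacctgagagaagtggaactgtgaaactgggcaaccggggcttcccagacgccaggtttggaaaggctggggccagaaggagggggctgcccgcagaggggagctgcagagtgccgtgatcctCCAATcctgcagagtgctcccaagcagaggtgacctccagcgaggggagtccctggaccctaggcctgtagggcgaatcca
Cyp8b1: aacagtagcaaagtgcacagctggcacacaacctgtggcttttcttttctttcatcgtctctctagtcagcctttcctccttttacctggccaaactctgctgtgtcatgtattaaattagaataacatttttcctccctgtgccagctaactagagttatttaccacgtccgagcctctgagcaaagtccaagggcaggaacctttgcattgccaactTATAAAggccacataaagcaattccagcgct
Nr0b2: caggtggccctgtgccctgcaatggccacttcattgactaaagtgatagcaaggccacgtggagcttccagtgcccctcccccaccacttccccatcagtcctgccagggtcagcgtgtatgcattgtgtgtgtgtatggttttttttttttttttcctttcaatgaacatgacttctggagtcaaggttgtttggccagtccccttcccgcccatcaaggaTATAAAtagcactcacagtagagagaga

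Searched on both strands over the 300 bases, the Cyp46a1 promoter held 6 GC boxes, 31 CG dinucleotides and no TATA box, at 70.3% GC. It also held 1 CCAAT box at -153, which reads on the strand not printed and is not in capitals. Of 32851 mouse promoters of this length, 35.7% held a GC box, 1.35% held at least 6, 37.4% held a CCAAT box and 13.6% held a TATA box. The median promoter had 52.7% GC and 7 CG dinucleotides. The Cyp8b1 promoter had a TATA box at position -31 from the start and 47.3% GC, and that of Nr0b2 had one at -28, 49.7% GC and 1 GC box. The Abcb11 promoter held the nuclear receptor core site, AGGTCA, at -56, which 16.3% of promoters held. The Hhipl1 promoter held the same core site at -51, 1 CCAAT box at -81 and no GC box. Further letters searched were CAAGGTCA, the site of LRH-1, and core sites paired as direct repeats spaced by 1, 4 or 5 bases (DR1, DR4, DR5) or as an inverted repeat spaced by 1 (IR1), and none of the 7 gene promoters held them. LRH-1 letters occurred in 1.56% of promoters, DR1 in 0.0396%, DR4 in 0.0152%, and DR5 and IR1 each in 0.00913%. Each CAAGGTCA would contain a core site, and no other searched motifs overlapped in the Cyp46a1 promoter. These letter matches are descriptions and not tested sites.

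Cyp46a1 (ENSMUSG00000021259, chr12:108300493-108328512 on GRCm39, plus strand) was at 105, 53.3, 104, 5.62, 105 and 134 CPM in the livers of 7c replicates 1 to 6. The 4 vehicle livers had 2.54, 3.67, 8.55 and 2.95 CPM. Thus 5 of 6 7c-treated livers lay above every vehicle liver, while replicate 4, with 166 counts, lay within the vehicle range. The means were 84.6 ± 46.7 CPM with 7c (n = 6) and 4.43 ± 2.79 CPM with vehicle (n = 4), a log2 fold change of 4.25 with a standard error (SE) of 0.70, or 19.0-fold. None of 10 livers was at 0, and the lowest held 77 counts.

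Because Cyp46a1 is best known from neurons, neuron and glia markers were summed in the same libraries. The sum of 8 such markers was 11.2 to 23.8 CPM in 7c-treated livers and 9.80 to 20.1 CPM in vehicle livers, and the groups overlapped. Most of this sum was 1 gene, Syt1, with 7.67 to 19.6 CPM against 6.71 to 16.6 CPM. Snap25, Tubb3 and Nefl were at 0 in all 10 livers. In the liver with skeletal muscle markers, 7c replicate 6, Cyp46a1 was at its highest, and the log2 fold change without that replicate was 4.07. The lowest and highest log2 fold changes under any alternative were 3.52 and 4.79.

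In kidney, Cyp46a1 was low in both groups. The 7c-treated kidneys had 1.84 (lowest), 2.88 (median) and 4.04 (highest) CPM, and the vehicle kidneys 2.59, 3.93, 2.35 and 3.11 CPM. The groups overlapped throughout, with a log2 fold change of 0.00 (SE 0.25, edgeR adjusted p = 1.00). The difference between the liver and the kidney effects was 4.24 on the log2 scale (SE 0.75), given as a description because the liver values chose the gene. The kidney library with the number of the low liver, 7c replicate 4, had 3.76 CPM.

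**Figure D2:**
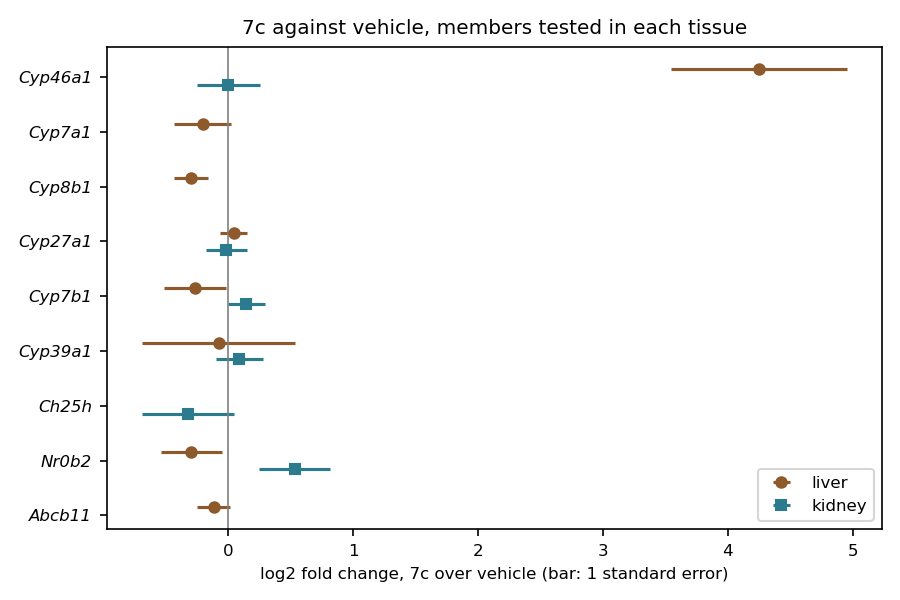
Log2 fold change of 7c over vehicle for the genes tested in liver (circles) and kidney (squares), with bars of 1 standard error. Cyp46a1 in liver, at 4.25, stood apart from the remaining values, which lay between -0.32 and 0.53.

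Cyp7a1 (ENSMUSG00000028240, chr4:6265612-6275633, minus strand) had 43.7 (lowest), 82.6 (median) and 119 (highest) CPM in 7c-treated livers and 96.4, 79.1, 107 and 77.5 CPM in vehicle livers. The 7c range enclosed that of vehicle, with 2 livers below and 1 above all vehicle livers. Its log2 fold change was -0.20 (SE 0.23).

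Cyp8b1 (ENSMUSG00000050445, chr9:121743422-121745371, minus strand) had 512, 361, 578, 421, 455 and 347 CPM with 7c and 559, 581, 497 and 556 CPM with vehicle. Thus 4 of 6 7c-treated livers were below every vehicle liver and none was above them all. The log2 fold change was -0.30 (SE 0.14), and it stayed below 0 under each alternative, between -0.38 and -0.23.

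The enzymes of the alternative route differed by less than the spread between livers. Cyp27a1 (ENSMUSG00000026170, chr1:74752314-74777056, plus strand) had 565 (lowest), 629 (median) and 700 (highest) CPM in 7c-treated livers. With vehicle it had 697, 670, 497 and 595 CPM, and the log2 fold change was 0.05 (SE 0.11). Cyp7b1 (ENSMUSG00000039519, chr3:18117411-18297740, minus strand) had 295, 406 and 707 CPM against 743, 462, 374 and 614 CPM, a log2 fold change of -0.26 (SE 0.25). For both, the groups overlapped. Of the exon bases of Cyp27a1, 32.8% overlap Prkag3 on the opposite strand, and the strand setting of the counting is not given in the sources used here.

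Cyp39a1 (ENSMUSG00000023963, chr17:43978281-44062322, plus strand) varied widely between livers. In 7c-treated livers it was at 1.64, 5.72, 34.3, 4.61, 14.0 and 14.0 CPM, a 20.9-fold span, and in vehicle livers at 18.9, 10.8, 5.63 and 16.8 CPM. The 7c range enclosed the vehicle range, and the log2 fold change was -0.08 (SE 0.61). Without 7c replicate 3, the highest liver, it was -0.70, without 7c replicate 1, the lowest, it was 0.16, and over all alternatives it ran from -1.05 to 0.16. In kidney the span of all 10 libraries was only 3.67 to 6.82 CPM.

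Nr0b2 (ENSMUSG00000037583, chr4:133280678-133283847, plus strand) had 24.3 (lowest), 32.5 (median) and 49.9 (highest) CPM in 7c-treated livers and 46.0, 64.98, 27.1 and 28.4 CPM in vehicle livers. The groups overlapped, with a log2 fold change of -0.29 (SE 0.25). Abcb11 (ENSMUSG00000027048, chr2:69068544-69173315, minus strand) had 546, 681 and 822 CPM against 622, 729, 900 and 690 CPM, a log2 fold change of -0.12 (SE 0.13). None of the 7c-treated livers exceeded all vehicle livers in either gene.

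Both remaining genes had too few counts for a liver test. Ch25h (ENSMUSG00000050370, chr19:34451178-34452564, minus strand), an oxysterol-producing enzyme that is prominent in activated macrophages, had 2 counts in 1 7c-treated liver and 0 in the other five. Vehicle livers had 11, 1, 0 and 0 counts, so that no difference was detectable at this depth. The macrophage and Kupffer cell markers summed to 63.9 to 199 CPM with 7c and 88.2 to 226 CPM with vehicle. Of Ch25h exon bases, 50.3% overlap Gm26902 on the opposite strand.

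Hsd3b7 (ENSMUSG00000042289, chr7:127399597-127402989, plus strand), the enzyme that follows CYP7A1, had 0 counts in all 20 libraries. In GENCODE vM39, 52.6% of its exon bases are shared with Gm49388 on the same strand and 67.7% with 9430064I24Rik on the opposite strand, in all 98.8%. Gm49388 also had 0 counts in all libraries, and 9430064I24Rik had at most 22. Reads that fall on overlapping genes can be left uncounted, and how such reads were handled is not given in the sources used here, so that the zero counts give no measure of its expression.

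Across the 8 genes tested in liver, 6 had lower and 2 higher mean levels with 7c, with a median log2 fold change of -0.16 against 0.00 over all 15012 genes tested. The edgeR quasi-likelihood test called 0 of the 8 at an adjusted p below 0.05, beside 0.00666% of all genes tested, and 2 had an unadjusted p below 0.05 (565 of all genes). DESeq2 called 1, Cyp46a1, beside 0.04% of all genes, as did edgeR's likelihood ratio test, beside 0.0466%. It was also the 1 of the 8 called by the quasi-likelihood test without 7c replicate 4, beside 0.0135% of all genes. In 0 of the 8 genes were the groups free of overlap, compared with 0.719% of all genes tested (0.32% with 7c higher and 0.4% with 7c lower). Nothing is read from these counts, since this contrast chose the genes.

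The genes around Cyp46a1 were examined for the same difference. Hhipl1 (ENSMUSG00000021260), on the same strand, ends 3.07 kb before the start of Cyp46a1. It had 3.41, 1.67, 2.26, 1.63, 6.28 and 5.81 CPM in 7c-treated livers and 0.726, 0.344, 0.455 and 1.05 CPM in vehicle livers. All 6 7c-treated livers were above every vehicle liver, replicate 4 included, as in 0.32% of all genes tested. The log2 fold change was 2.44 (SE 0.50), which edgeR did not call (edgeR adjusted p = 0.880). Counts were low, from 12 to 174. In kidney Hhipl1 had 0.712, 1.02, 0.748, 0.155, 1.44 and 0.913 CPM with 7c and 0.680, 0.334, 0 and 0.594 CPM with vehicle. There too 5 of 6 were above every vehicle kidney, all but replicate 4, and the log2 fold change was 1.045 (SE 0.75, edgeR adjusted p = 0.997) on 0 to 47 counts.

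The 11 other genes tested with any part within 500 kb of Cyp46a1 had log2 fold changes between -0.68 and 0.24. Their number includes Eml1, 36.7 kb downstream by gene start, with -0.26 (SE 0.37), Ccdc85c, 58.8 kb upstream, with -0.03 (SE 0.11), and the transcription factor Yy1 with -0.03 (SE 0.09). The log2 fold changes above 1 in this window were thus those of 2 adjacent genes. The window held 42 annotated genes, 25 of them in the count table.

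**Figure D3:**
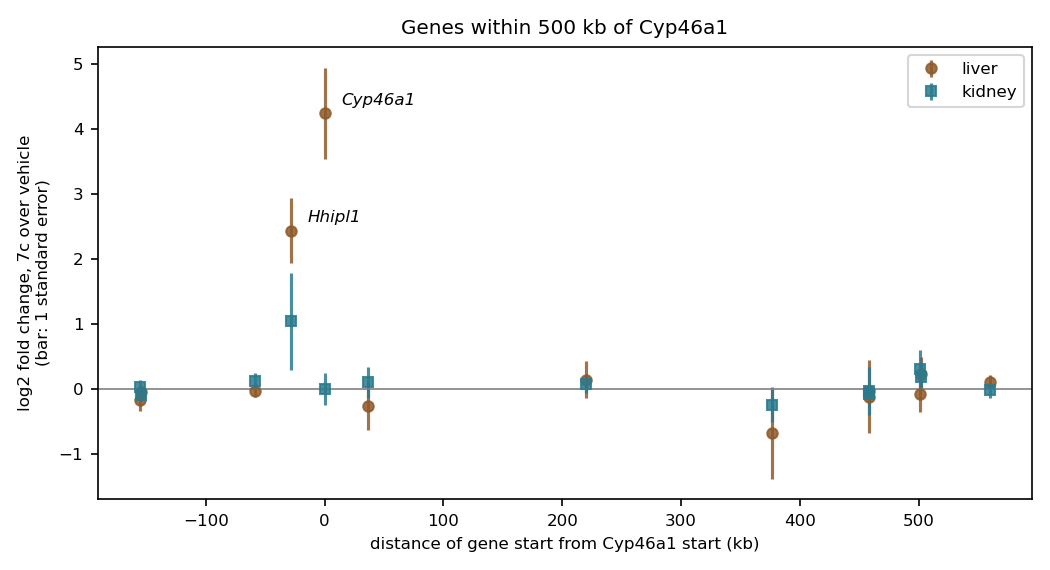
Log2 fold change of 7c over vehicle in liver (circles) and kidney (squares), with bars of 1 standard error, for 13 genes. Each has any part within 500 kb of Cyp46a1 and is placed by the distance between gene starts in kb. Cyp46a1 (4.25) and Hhipl1 (2.44) stood above the 11 others in liver, which lay between -0.68 and 0.24.

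In kidney, 6 of the 10 genes had enough counts for the test and 0 were called, beside 0.0% of all 17749 genes tested. At an unadjusted p below 0.05 the count was also 0 (463 of all genes), and DESeq2 called 0 (0.101% of all genes), as did the likelihood ratio test (0.0789%). The groups overlapped in all 6, whereas 0.716% of all genes tested did not overlap (0.31% with 7c higher and 0.406% with 7c lower). The largest log2 fold change was that of Nr0b2, 0.53 (SE 0.28, edgeR adjusted p = 0.997). Its levels were 2.18 (lowest), 2.39 (median) and 4.45 (highest) CPM with 7c and 2.72, 2.06, 1.498 and 1.36 CPM with vehicle, so that 2 of 6 7c-treated kidneys were above every vehicle kidney.

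Cyp27a1, the gene of highest mean TPM among the 10 in vehicle kidney, had 57.6, 73.6 and 99.2 CPM (lowest, median, highest) with 7c and 66.4, 99.95, 64.3 and 69.8 CPM with vehicle, with a log2 fold change of -0.01 (SE 0.17, edgeR adjusted p = 0.997). Cyp7b1 had 199.5, 154, 156, 225, 204 and 201 CPM against 146, 216, 180 and 145 CPM, a log2 fold change of 0.15 (SE 0.15, edgeR adjusted p = 0.997). The values of Cyp39a1 gave 0.09 (SE 0.19, edgeR adjusted p = 0.997). Ch25h had 10 to 34 counts with 7c and 17 to 27 with vehicle, with a log2 fold change of -0.32 (SE 0.37, edgeR adjusted p = 0.997). None of the 6 genes passed the test in kidney. All 6 hepatocyte markers had lower fitted levels in 7c-treated kidneys, with a median log2 fold change of -1.40 and 0 called by edgeR, and their part in these kidney values was not tested.

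Whether the treatment difference varied between tissues could be tested for 4 genes besides Cyp46a1, and edgeR called 0 of the 4, beside 0.00706% of 14163 genes. At an unadjusted p below 0.05 there was 1, Nr0b2, beside 353 of the 14163 genes. For Nr0b2 the liver effect was lower than the kidney effect by a log2 value of -0.83 (SE 0.39, edgeR adjusted p = 1.00). Differences were 0.05 (SE 0.22) for Cyp27a1, -0.42 (SE 0.32) for Cyp7b1 and -0.18 (SE 0.72) for Cyp39a1, each with an edgeR adjusted p of 1.00. DESeq2 gave an adjusted p to only 2 of the 10 genes and called 0, beside 0.463% of the 3452 genes to which it gave one.

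Most of these genes were higher in liver than in kidney. With edgeR, 8 of 9 genes tested were higher in vehicle liver than in vehicle kidney, beside 24.2% of all 19025 genes tested, and none was called higher in kidney, beside 28.0% (52.2% in either direction). Of the 8, Cyp7a1, Cyp8b1 and Abcb11 had enough counts for the test only in liver, so that they had to differ and are described without a p, and Ch25h had enough only in kidney. These genes are known for their part in the liver, so that this count describes where they were expressed. Cyp8b1 had 559, 581, 497 and 556 CPM in vehicle livers and 0.418, 0.0557, 0.482 and 0.140 CPM in vehicle kidneys, on 2 to 18 counts. Abcb11 had 622, 729, 900 and 690 CPM in vehicle livers and at most 0.628 CPM in vehicle kidneys. For Cyp7a1 the vehicle kidneys had 0, 4, 0 and 0 counts, against at least 77.5 CPM in vehicle livers.

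The repressor Nr0b2 and the enzymes Cyp27a1, Cyp7b1 and Cyp39a1 had counts in every library of both tissues. The log2 difference was 5.07 (SE 0.37, adjusted p = 4.66e-07) for Nr0b2, 3.66 (SE 0.21, adjusted p = 5.53e-08) for Cyp27a1, 2.30 (SE 0.23, adjusted p = 8.16e-06) for Cyp7b1 and 1.97 (SE 0.35, adjusted p = 0.000664) for Cyp39a1. In vehicle kidney the order by TPM was Cyp27a1 with 73.6 ± 7.47, Cyp7b1 with 47.5 ± 6.23, Cyp39a1 with 5.50 ± 1.39, Nr0b2 with 2.91 ± 0.914, Cyp46a1 with 2.36 ± 0.333 and Ch25h with 1.57 ± 0.182. The ranges of Cyp39a1 and Nr0b2, and of Nr0b2 and Cyp46a1, overlapped. Thus the alternative route enzymes led in kidney, and Cyp7a1 and Cyp8b1 were at or near 0.

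Cyp46a1 was 1.18 higher in vehicle liver on the log2 scale (SE 0.40, edgeR adjusted p = 0.0272). On the CPM scale, with TMM factors fitted within each tissue, only 1 of 4 livers, replicate 3, was above every kidney. That count depends on the scale: by TPM the vehicle livers had 2.09, 3.36, 7.80 and 2.71. The vehicle kidneys had 2.11, 2.65, 2.04 and 2.64 TPM. The call was lost without vehicle replicate 3, where the difference was 0.57 (adjusted p = 0.209), with library totals in place of TMM factors, where it was 0.61 (adjusted p = 0.205), and under 2 further settings given in the closing section. Ch25h was the only detected gene with a higher mean level in kidney, with 0.706, 0.668, 0.669 and 0.594 CPM in vehicle kidneys against 0.363 or less in the livers, a log2 difference of -2.14 (SE 1.14), which edgeR did not call. Without vehicle replicate 1, whose liver had 11 counts, it was -5.07 and was called (edgeR adjusted p = 0.00913), although Ch25h entered this comparison only through its kidney counts.

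**Figure D4:**
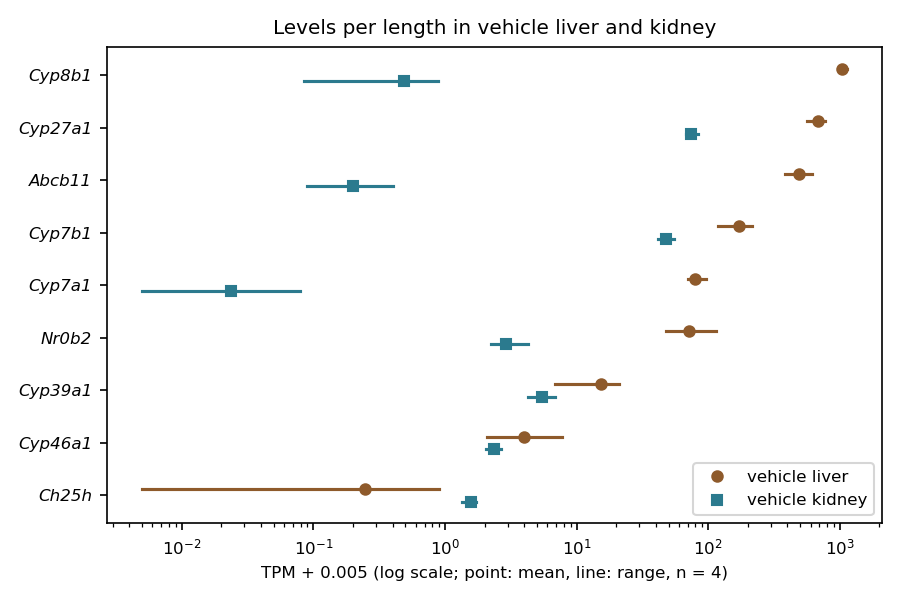
TPM plus 0.005 on a log scale for 9 genes in vehicle liver (circles) and vehicle kidney (squares), with the mean as a point and the range of 4 libraries as a line. Cyp8b1 reached 1037 TPM in liver and 0.484 TPM in kidney, and Cyp46a1 was at 3.99 and 2.36 TPM.

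Genes that act beside these 10 were followed in 5 lists of 60 genes: further synthesis enzymes, transporters, regulators, the oxysterol receptors LXR with genes they activate, and clock genes. In liver edgeR called 0 of 58 tested (0.00666% of all genes), with 4 at an unadjusted p below 0.05 (565 of 15012 genes), and DESeq2 and the likelihood ratio test called 0. The 11 further synthesis enzymes, among them the conjugating enzyme Baat (-0.15, SE 0.10), had a median log2 fold change of -0.01 and ranged from -0.15 to 0.23. For 13 tested transporters the median was -0.01, with Abcc4, a basolateral exporter, at 0.96 (SE 0.48) and Abcb4, which moves phospholipid into bile, at -0.17 (SE 0.09). The 10 genes of the LXR list, which includes the receptor genes Nr1h2 (-0.12) and Nr1h3 (0.06), had a median of 0.06, compared with 0.00 over all genes. They ranged from -0.12 to 0.52, with 6 higher and 4 lower. The largest were Scd1 at 0.52 (SE 0.38) and Abcg1 at 0.47 (SE 0.24).

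Among 12 tested regulators the median was -0.05. Prox1, a corepressor of Cyp7a1, had 42.6 (lowest), 61.9 (median) and 74.0 (highest) CPM in 7c-treated livers and 75.9, 71.5, 99.8 and 84.1 CPM in vehicle livers, with 5 of 6 below every vehicle liver (-0.47, SE 0.15). Nr5a2 (LRH-1), an activator of Cyp7a1 and Cyp8b1, had 48.6, 56.7 and 62.0 CPM against 61.3, 81.9, 71.2 and 62.1 CPM, with 4 of 6 below (-0.29, SE 0.11). Levels of the bile acid receptor gene Nr1h4 (FXR) overlapped, at 110 to 144 CPM with 7c and 105 to 143 CPM with vehicle.

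In kidney edgeR called 0 of 52 tested genes of these lists (0.0% of all genes), with 1 at an unadjusted p below 0.05 (463 of 17749 genes), and DESeq2 and the likelihood ratio test called 0. That gene was Scd1, an LXR-responsive fatty acid desaturase, which had 107, 142 and 356 CPM (lowest, median, highest) with 7c and 71.1, 57.1, 105 and 89.1 CPM with vehicle. All 6 7c-treated kidneys were above every vehicle kidney, as in 0.31% of all genes (log2 fold change 1.15, SE 0.32, edgeR adjusted p = 0.997). Adipocyte markers summed to 55.7 to 139 CPM with 7c and 36.3 to 49.1 CPM with vehicle. Of the 6 markers edgeR called 0 (0.0% of all genes), and 6 had an unadjusted p below 0.05 (463 of 17749 genes). Their part in the Scd1 values was not tested.

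By tissue, 10 of 14 transporters were called higher in vehicle liver, beside 24.2% of all genes, and 4 in vehicle kidney, beside 28.0%. Of these calls, 3 and 1 were of genes with enough counts for the test only in the higher tissue. Slc51a and Slc51b are the subunits of the basolateral bile acid exporter. Slc51a, among the latter, had 107 to 171 CPM in vehicle kidneys and at most 5 counts in vehicle livers, and Slc51b had a log2 difference of -4.81 (edgeR adjusted p = 8.20e-06). Of the 11 further synthesis enzymes, 8 were called higher in liver and 2 in kidney, and of 12 regulators 7 in liver and 1, Ppargc1a, in kidney, beside the same shares. Of the liver calls, 1 enzyme and 3 regulators had enough counts only in liver. Klb, the coreceptor through which the intestinal hormone FGF15 lowers Cyp7a1, was among those 3, with 19.2 to 27.7 CPM in vehicle livers and at most 2 counts in vehicle kidneys. Nr1h4 was close in both, at 0.34 (adjusted p = 0.167).

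Cyp7a1 follows the time of day, so clock genes were read in the same libraries. Dbp, a clock output gene, was at 2.07, 0.965, 0.266, 23.9, 46.4 and 93.1 CPM in the livers of 7c replicates 1 to 6 and at 5.15, 3.95, 5.09 and 3.54 CPM in vehicle livers. All 4 vehicle livers therefore lay between the lower 3 and the higher 3 of the 7c-treated livers. Nr1d1, a clock repressor, split them likewise, at 46.7, 30.4, 11.7, 136, 126 and 164 CPM against 102, 102, 87.1 and 56.1 CPM.

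The same 3 numbers, 4 to 6, had high Dbp in 7c-treated kidneys, at 93.8, 116 and 116 CPM, while replicates 1 to 3 had 16.3, 11.7 and 6.44 CPM and vehicle kidneys 13.6 to 36.5 CPM. Cyp7a1 was at 87.4, 89.6 and 119 CPM in the livers of 7c replicates 1 to 3 and at 43.7, 77.8 and 52.0 CPM in those of replicates 4 to 6. Cyp46a1 did not follow this split, with values above 100 CPM on both sides of it. The collection times are not given in the sources used here, and the part of the clock in the Cyp7a1 values was not tested.

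**Figure D5:**
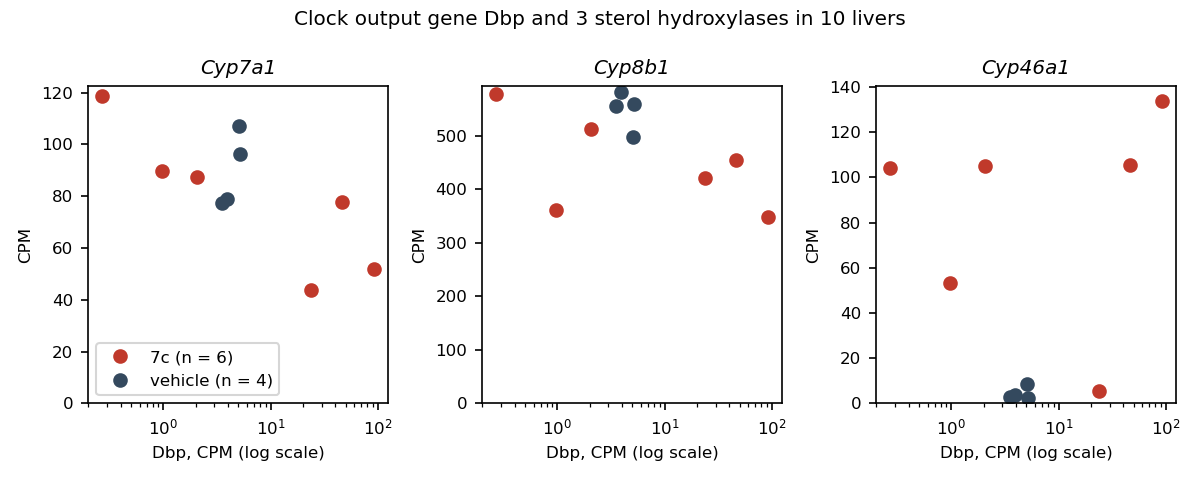
CPM of Cyp7a1, Cyp8b1 and Cyp46a1 against CPM of Dbp on a log scale in 10 livers, red for 7c and dark blue for vehicle. The 4 vehicle livers fell between 3.54 and 5.15 CPM of Dbp, with 3 7c-treated livers on either side.

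Because NR0B2 represses bile acid synthesis, 5 pairs of these genes were compared over the 10 livers on log2 CPM with two-sided permutation tests. Nr0b2 and its target Cyp7a1 had Pearson's r = -0.31 (permutation p = 0.376, adjusted p = 0.627) and Spearman's rho = -0.27 (permutation p = 0.446), with r = -0.60 within the 6 7c-treated livers (exact permutation p = 0.214). For Nr0b2 with Cyp8b1 the r was 0.10 (permutation p = 0.790, adjusted p = 0.866) and rho 0.25 (permutation p = 0.492), with the opposite sign within the 7c-treated livers, r = -0.40 (exact permutation p = 0.449). Cyp7a1 with Cyp8b1 gave r = 0.57 (permutation p = 0.0836, adjusted p = 0.323) and rho = 0.47 (permutation p = 0.177), and r = 0.14 without the 2 livers farthest from the median of Cyp7a1. Within the 7c-treated livers r was 0.61 (exact permutation p = 0.204), and the 4 vehicle livers were too few for a value of their own.

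Nr0b2 with Abcb11, both FXR targets, gave r = -0.51 (permutation p = 0.129, adjusted p = 0.323) and rho = -0.69 (permutation p = 0.0345, adjusted p = 0.173). Without the 2 livers farthest from the median of Nr0b2 the r was -0.71, and within the 6 7c-treated livers it was -0.89 (exact permutation p = 0.0222). That p is the smallest of those within the 7c-treated livers, which were not adjusted over the pairs. The livers form separate groups in Cyp46a1, so that no r over all livers is given for it with Cyp7a1, nor within the 7c-treated livers, where replicate 4 alone had the lowest level of both genes and the other five are too few. Over all 10 livers, no pair passed the threshold after adjustment over the 5 pairs.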

How the data were processed

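RNA of liver and kidney from 6 7c-treated and 4 vehicle mice was analysed as 20 libraries. Per the labels and the study's methods, libraries were stranded and polyA-selected, and the authors aligned reads with STAR 2.7.11b to GRCm39 and counted them on genes with featureCounts 2.0.6. The deposited values are raw counts, not normalized, and 22978 of 57010 genes were at 0 throughout. Annotation release, strand setting and treatment of multiply mapped reads are not given in the sources used here. Symbols, positions and exon lengths for TPM came from GENCODE vM39, which matched 56310 genes by identifier. Of gene counts from 1 to 20, 75.1% to 83.2% were even in each library, so a count is not always an independent fragment. No 2 libraries of a tissue were alike within sampling noise (90 pairs compared). The labels do not say that equal numbers in liver and kidney are 1 mouse. Within a tissue, p-values measure the spread between these mice. The tissue and interaction fits treated all libraries as separate animals, although liver and kidney came from the same mice.

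A gene was tested where 50% or more of a tissue's libraries held a count of 10 or more, using edgeR 4.0.16 (TMM, quasi-likelihood F-test, R 4.3.3), with Benjamini-Hochberg adjustment over all tested genes and a threshold of 0.05. Each tissue was fitted alone with treatment as the only term. Vehicle liver was compared with vehicle kidney over genes that passed in either tissue, and the interaction was fitted on 20 libraries over genes that passed in both. SEs come from the same fits. CPM values were scaled with TMM factors fitted within each tissue, so that they carry no scaling between tissues. Log2 CPM used a prior count of 2, and correlations 100000 resamples, or all 720 orderings of 6 livers.

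The 10 genes and all lists were chosen with earlier results of these data known. The text names these genes, of each list the genes past the threshold or else those of smallest p or highest level, tested genes within 500 kb of Cyp46a1, and the genes most like Cyp46a1 and Cyp7a1. Nr1h4, Klb, Ppargc1a, Slc51a, Slc51b and Nr1d1 were named after their values were seen. Alternatives were RLE size factors, DESeq2 1.42.0, the likelihood ratio test, no filter, filterByExpr, a replicate block, 1 fit of all libraries, leaving out each replicate, and a prior count of 1. Library totals without TMM were added after the data were seen. In data simulated from these counts, the liver test recovered 74 of 91 genes changed by 2 and 58 of 96 changed by 1 on the log2 scale. In kidney it recovered 86 of 97 and 51 of 98. Many genes were changed at once in each simulated set, which eases the adjustment, and the spread followed a fitted model. These shares therefore do not measure the recovery in the real livers and kidneys.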

Additional observations from a re-analysis of the deposited data

Results flagged for a closer look

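In 36 groups of 4 or 6 libraries, 1 library stood far from the rest of its group by a gap test in 6, where chance alone flags about 1 group in 20. Ch25h was at 0.0656 CPM in the liver of 7c replicate 1 and at 0.363 CPM in that of vehicle replicate 1, with the other livers of each group near 0. Cyp7a1 was at 0.188 CPM in the kidney of 7c replicate 5 and at 0.111 CPM in that of vehicle replicate 2, with 0 in the others. These 4 values rest on 2 to 11 counts. Cyp27a1 was at 99.95 CPM in the kidney of vehicle replicate 2, against 64.3 to 69.8 CPM in the other vehicle kidneys. Nr0b2 was at 4.45 CPM in the kidney of 7c replicate 4, against 2.18 to 3.00 CPM in the other 7c-treated kidneys. Cyp46a1 was not among them, since its low liver, 7c replicate 4 at 5.62 CPM, lay nearer to the next one by this measure.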

How the results depend on the processing

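In liver the count of the 10 genes called was 0 in edgeR's quasi-likelihood test and 1, always Cyp46a1, with DESeq2, the likelihood ratio test, no filter, or all 20 libraries in 1 fit. It was 0 to 1 when a replicate was left out, with 1 only without 7c replicate 4. For the interaction the count was 0 in the quasi-likelihood test and 1 with filterByExpr, the likelihood ratio test or no filter, and 0 to 1 with a replicate left out of both tissues, with 1 without 7c replicate 4 or vehicle replicate 3; each time this was Cyp46a1, for which it is only a description. The cause was not tested. The kidney count was 0 throughout, and the count for vehicle liver against vehicle kidney ran from 7 to 9. With a prior count of 1 or RLE size factors, Pearson's r over 10 livers kept its sign in all 5 feedback pairs, and its adjusted p stayed above 0.05.

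With the replicate number as a block, the counts were 0 in liver, 0 in kidney, 7 between tissues and 0 for the interaction. The tissue difference of Cyp46a1 was then 1.02 (adjusted p = 0.0650), as it was 1.19 (adjusted p = 0.0774) with all libraries in 1 fit, and the liver difference of Cyp39a1 with the block was -1.05. Equal numbers in liver and kidney may be 1 mouse: 8 of 10 libraries correlated best with their own number, and the deviations of 7 of 10 pairs were correlated above 0.1 (range 0.01 to 0.26). Pairing was used in the tests only if all 10 pairs passed 0.1. For 7c and vehicle of 1 number it was 0 of 4 in liver and 1 of 4 in kidney.

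Library totals in place of TMM, chosen after the data were seen, moved the median tissue difference of all genes from -0.11 to -0.70 on the log2 scale, and the calls from 4596 higher in liver and 5330 in kidney to 2593 and 8805. Of the 8 genes called higher in liver, 7 remained. The signs of the liver differences of Cyp27a1, Cyp39a1 and Nr0b2 changed under 1, 5 and 1 alternatives. Depth limits Ch25h, at 0 to 11 counts in liver.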

Other observations

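Over the 10 livers, the genes whose log2 CPM was most like that of Cyp46a1 were Adss1 (Pearson's r = 0.906), Alpk3 (0.901), Psme2b (0.895), Serpina3g (0.893) and Cand2 (0.889). These values are descriptions, picked as the highest of 15012 genes over 10 points that share treatment and library. The livers form separate groups in Cyp46a1, so that such an r can follow that separation alone. The liver with skeletal muscle markers, 7c replicate 6, also had the highest Cyp46a1, and its part in these values was not tested. Adss1 and Serpina3g lie on chromosome 12 with Cyp46a1, at 4.29 and -4.10 Mb from it. Of the 100 genes most like Cyp46a1, 8 lay on chromosome 12, which carries 3.61% of the genes tested. Adss1, an enzyme of purine nucleotide synthesis, had 23.5 CPM in the liver of 7c replicate 4, where Cyp46a1 was low, and up to 37.7 CPM in the other 7c-treated livers, against 21.4 to 26.2 CPM in vehicle livers. Serpina3g had 0.542 CPM in that liver and up to 1.79 CPM in the others, against 0.287 to 0.462 CPM with vehicle. For Cyp7a1 the genes most alike were Hmcn1 (0.905), Gapdhs (0.903) and Tinagl1 (0.899).

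Cholangiocyte markers, of the cells that line bile ducts, summed to 28.6 to 34.5 CPM in 7c-treated livers and 35.4 to 58.1 CPM in vehicle livers. Most of this sum was Spp1, with 16.9 to 29.9 CPM against 23.9 to 43.3 CPM, which overlapped, and Epcam alone of the 6 markers had no overlap, with 6 of 6 7c-treated livers below every vehicle liver, as in 0.4% of all genes tested.

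Hepatocyte markers in kidney summed to 79.4 to 327 CPM with 7c and 205 to 299 CPM with vehicle, and this sum was mostly Ttr. All 6 markers had lower fitted levels in 7c-treated kidneys, with a median log2 fold change of -1.40. With edgeR 0 of 6 were called (0 of all 17749 genes) and 4 had an unadjusted p below 0.05 (463 of all genes). For F2, 6 of 6 7c-treated kidneys were below every vehicle kidney, as in 0.406% of all genes tested. F2 had a log2 fold change of -2.10 (SE 0.48, edgeR adjusted p = 0.997) on 4 to 85 counts. It was called by DESeq2 (0.101% of all genes), the likelihood ratio test (0.0789%) and the fit of all 20 libraries (18 of 17749 genes).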
